A study of Mus musculus with 15 samples.

Results

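Expression of 35 genes that encode chaperones of the endoplasmic reticulum (ER) and factors of the unfolded protein response was examined in mouse brain by RNA-seq. The genes were taken as a list of names, and their rows were read from the 21878 rows of each expression table; all 35 were present. Expression is given in FPKM, fragment numbers scaled to transcript length and library depth, and differences are given as log2 changes of FPKM + 1, a scale that understates the change of low genes. Of the 35 genes, 33 had at least 1 FPKM in at least 3 libraries and were tested among 12728 such genes. Trib3 and Derl3 were too low for this filter and are described by their values, and Trib3 also by a fit with no filter.

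The 15 libraries came from prefrontal forebrain cortex of conditional presenilin double knockout mice (DKO) and of wildtype C57BL6/J mice (WT). The mice were 8 months old when they started to drink either plain water (the groups WT-B, 4 libraries, and DKO-B, 4 libraries) or water with nicotine at 100 µg/ml (WT-N, 4 libraries, and DKO-N, 3 libraries), and the exposure lasted 3 months. Tissue was taken after behavioral tests. The promoter and cell type that drive the conditional deletion, the strain background of the knockout and the sex of the mice were not stated in the labels. No label states that each library came from a separate mouse, so p-values measure the spread between libraries.

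Secreted and membrane proteins fold in the ER, where BiP (the product of Hspa5) and GRP94 bind unfolded chains, calnexin and calreticulin hold glycoproteins, and protein disulfide isomerases join cysteines. Proteins that fail to fold are trimmed, moved back to the cytosol and degraded, a route called ER-associated degradation. The sensors ATF6, IRE1 (Ern1) and PERK (Eif2ak3) report an overload: ATF6 and XBP1 raise chaperone genes through a promoter motif called the ER stress response element, and PERK phosphorylates eIF2, which slows translation in general and raises translation of ATF4, the activator of Ddit3 (CHOP), Trib3 and genes of amino acid metabolism. Presenilins are the catalytic subunits of gamma-secretase, a membrane protease whose substrates include Notch and the amyloid precursor protein.

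Promoter sequences were available for 31 of the 35 genes from RefSeq (GRCm38.p6), as windows of 250 bases before to 50 bases after the start of each gene. Both strands were searched for 4 motifs, and no matches overlapped each other. The ER stress response element, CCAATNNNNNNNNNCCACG, was found in 9 of the 31 genes and in 0.119% of all 32851 promoter windows. They are shown because they are the sequences through which the chaperone genes can share regulation; capitals mark the letters that the motif fixes. Hspa5 carries the best known example, and its 250 bases before the start site (chr2:34771840-34772089, + strand) are given whole.
Hspa5: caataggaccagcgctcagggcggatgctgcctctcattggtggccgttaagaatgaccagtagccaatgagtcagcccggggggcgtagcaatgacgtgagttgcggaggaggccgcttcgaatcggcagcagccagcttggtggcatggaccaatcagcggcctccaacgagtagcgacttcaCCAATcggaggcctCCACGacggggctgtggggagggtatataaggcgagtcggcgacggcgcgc
The same motif in the other genes is given with its flanks, read on the strand where the motif runs forward. Hsp90b1 held it at 2 places.
Hsp90b1 (chr10:86705626-86705668, - strand): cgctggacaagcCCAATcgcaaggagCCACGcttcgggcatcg
Hsp90b1 (chr10:86705521-86705563, + strand): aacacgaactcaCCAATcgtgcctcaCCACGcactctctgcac
Calr (chr8:84847063-84847105, + strand): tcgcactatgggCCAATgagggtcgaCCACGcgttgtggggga
Canx (chr11:50325788-50325830, - strand): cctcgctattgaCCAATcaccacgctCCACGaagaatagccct
Pdia6 (chr12:17266479-17266521, + strand): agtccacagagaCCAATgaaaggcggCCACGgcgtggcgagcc
Dnajc3 (chr14:118937815-118937857, + strand): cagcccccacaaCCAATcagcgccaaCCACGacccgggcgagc
Creld2 (chr15:88819508-88819550, - strand): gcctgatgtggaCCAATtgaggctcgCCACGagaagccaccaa
Syvn1 (chr19:6046520-6046562, + strand): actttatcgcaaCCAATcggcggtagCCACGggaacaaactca
Derl3 (chr10:75893230-75893272, - strand): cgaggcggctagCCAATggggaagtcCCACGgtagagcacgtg
Dnajb11 and Herpud1 held the shorter second form, in which ATTGG and CCACG stand 1 base apart and which was found in 0.0365% of all windows.
Dnajb11 (chr16:22857844-22857870, + strand): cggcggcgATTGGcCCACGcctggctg
Herpud1 (chr8:94386365-94386399, + strand): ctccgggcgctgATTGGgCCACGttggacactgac
The composite element bound by ATF4 with a C/EBP partner, searched as TGATGNAAN, was found in Asns, Chac1, Herpud1 and Trib3 and in 3.95% of all windows.
Asns (chr6:7693212-7693244, - strand): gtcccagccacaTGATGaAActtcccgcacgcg
Chac1 (chr2:119351036-119351068, - strand): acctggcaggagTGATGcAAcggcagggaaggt
Herpud1 (chr8:94386304-94386336, - strand): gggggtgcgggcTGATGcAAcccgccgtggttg
Trib3 (chr2:152344030-152344056, + strand): ccgcccggcTGATGtAAacctgagcta
The XBP1 motif, searched only as the letters TGACGTGG, was not found in these windows of the 31 genes. Because 0.676% of all windows held it, its absence from 31 genes says little. A match is a match of letters and does not show that a factor was bound.

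The libraries held between 16334904 and 19469215 reads in genes, and every tested member except Pdia5 was counted by at least 80 reads in each library, Pdia5 by 29 to 87. Psen2 (gene 19165, chromosome 1, 180227004 to 180263467, GRCm38.p6), one of the targeted genes, was at 5.44 to 7.14 FPKM in WT-B, 5.71 to 7.05 in WT-N, 1.29 to 1.72 in DKO-B and 1.36 to 1.76 in DKO-N, and the 2 genotypes did not overlap; the labels do not say which exons the deletion removes. Cell type markers differed between the genotypes. The 14 microglia markers summed to 291 to 339.7 FPKM in WT-B and 1197 to 1388 in DKO-B, with 14 of 14 called higher under water and 12 of 14 under nicotine. The 10 astrocyte markers summed to 773 to 867 FPKM in WT-B and 1326 to 1449 in DKO-B, with 10 of 10 called higher under water and 9 of 10 under nicotine. Of the 10 excitatory neuron markers, 6 were called lower in each genotype comparison and 1 (Cux2) higher under nicotine, where 3 had every DKO-N library above every WT-N library, with sums of 1415 to 1464 FPKM in WT-B and 1150 to 1278 in DKO-B; under nicotine the sums were 1425 to 1514 in WT-N and 1217 to 1301 in DKO-N. Striatal markers were called higher in 5 of 9 genes under water (median log2 change 0.66, sums of 156 to 224 FPKM in WT-B and 230.3 to 383 in DKO-B) and in 1 of 9 under nicotine (median 0.17, sums of 161 to 277 in WT-N and 192 to 274 in DKO-N). Under water and nicotine, 9 and 5 of 10 inhibitory neuron markers, 6 and 4 of 10 endothelial and mural markers and 6 and 5 of 10 oligodendrocyte markers were called higher, none lower. No marker of these 7 lists was at 0 in all libraries of a group. In bulk tissue, more cells of a type and more RNA per cell cannot be told apart, and the part of these markers in the results below was not tested. The 8 markers of B and plasma cells, which are rich in ER chaperones, were each under 1 FPKM in every library.

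In the cortex as a whole the luminal chaperones were among the well expressed genes of the group. Averaged over all libraries, Calr stood highest at 173 FPKM, followed by Hsp90b1 at 131, Canx at 89.2, Hspa5 at 79.96, Atf4 at 71.3 and Pdia3 at 68.8. Canx and Hspa5 overlapped in their library ranges within WT-N and DKO-B, so their order is not beyond the spread there. The order of other genes differed between groups. In WT-B Atf4 averaged 78.7 FPKM and Hspa5 74.000. Pdia3 averaged 74.7 in DKO-B and 72.2 in DKO-N, above Atf4 at 64.2 and 60.1. At the low end, Ern1 averaged 1.82 FPKM, Pdia5 1.47, Derl3 0.526 and Trib3 0.460. Among the sensors, Atf6 averaged 16.1 FPKM and Eif2ak3 8.63, against 31.97 for the IRE1 substrate Xbp1.

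The first question was whether the double knockout altered these genes in mice that drank water. In DKO-B against WT-B, 15 of the 33 tested genes were called higher and 3 lower at a limma adjusted p under 0.05, while 25.5% and 12.4% of all tested genes were called higher and lower (38.0% in all). The median log2 change of the 33 genes was 0.12, beside 0.05 over all tested genes. The 15 higher genes were P4hb, Edem2, Ddit3, Derl1, Edem1, Pdia4, Eif2ak3, Canx, Pdia3, Dnajb11, Manf, Sdf2l1, Hspa5, Calr and Pdia6, and the 3 lower genes were Atf4, Asns and Herpud1. In 10 of the 33 genes every DKO-B library lay above every WT-B library, and in 2 every one lay below, where 24.0% and 12.5% of all tested genes did so. At an unadjusted p under 0.05 there were 22 of the 33 genes, beside 46.4% of all tested genes. The largest difference of means was 40.5%, for Ddit3.

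The second question was whether the same genotype difference was seen in mice that drank nicotine. In DKO-N against WT-N, 8 of the 33 genes were called higher and 5 lower by limma, where 24.6% and 11.0% of all tested genes were called in these directions (35.7% in all). The median log2 change of the 33 genes was 0.00, beside 0.06 over all tested genes. In 9 genes every DKO-N library lay above every WT-N library and in 4 every one lay below, where 25.8% and 11.8% of all tested genes did so, and 14 genes had an unadjusted p under 0.05, beside 45.2% of all tested genes. All 8 higher genes, namely P4hb, Eif2ak3, Derl1, Edem1, Edem2, Ddit3, Canx and Pdia3, were also among the 15 of the water comparison, and Atf4, Asns and Herpud1 were lower in both. Over all tested genes 18.1% were called higher and 8.44% lower in both comparisons, which share no libraries. Chac1 and Pdia5 were called lower under nicotine only, and Pdia4, Dnajb11, Manf, Sdf2l1, Hspa5, Calr and Pdia6 were called higher under water only. DKO-N and WT-N also differed in Y-linked expression (given below), and genotype under nicotine cannot be told apart from it.

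**Figure D1:**
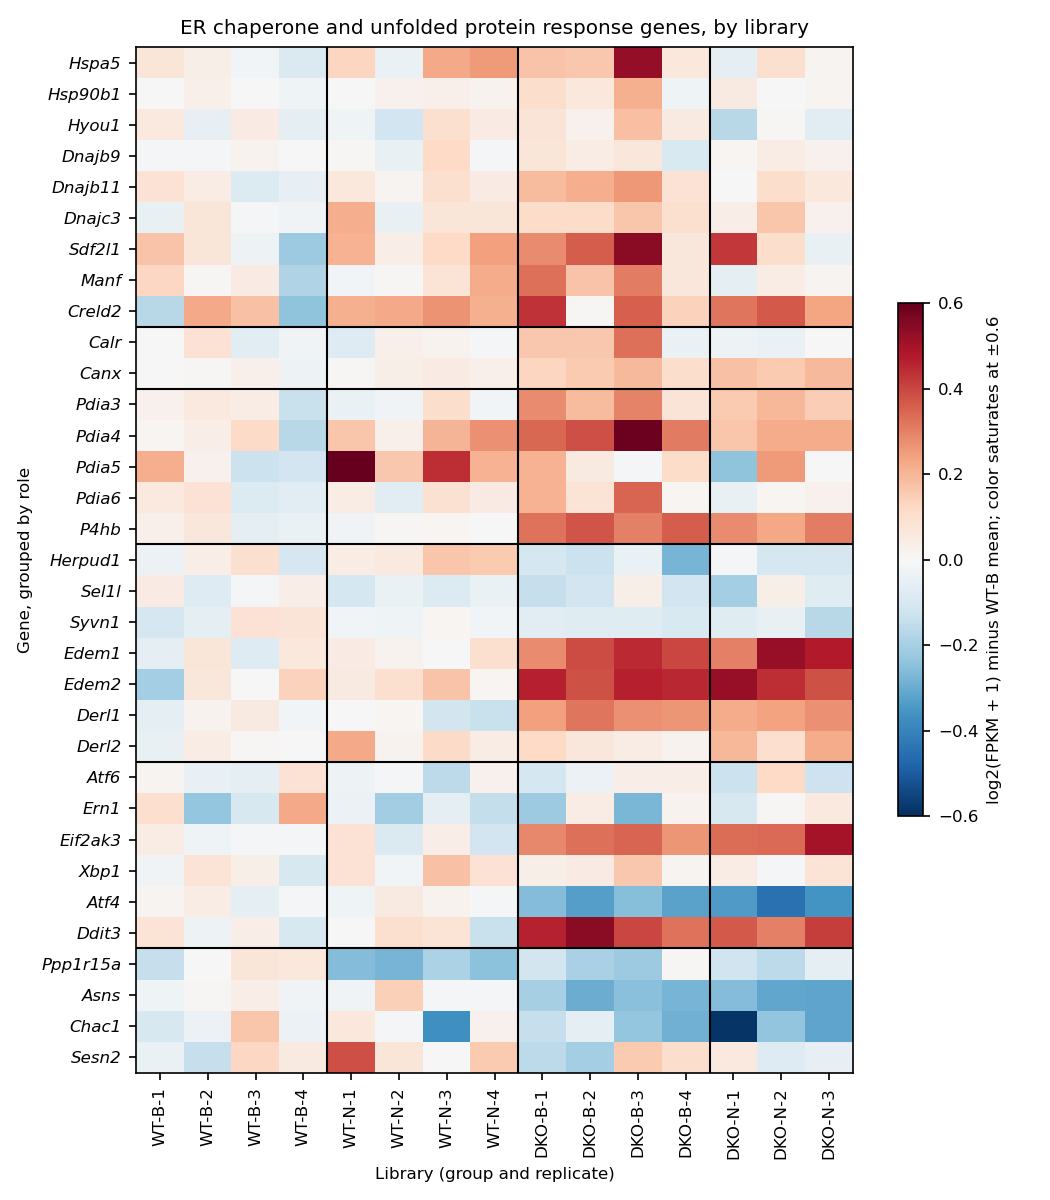
Rows are the 33 tested genes grouped by role and columns are the 15 libraries; color gives log2(FPKM + 1) minus the mean of the 4 WT-B libraries. Rows such as P4hb, Edem1, Edem2, Derl1, Eif2ak3 and Ddit3 are red across all 7 DKO libraries and Atf4 and Asns are blue across them, whereas Hspa5, Sdf2l1, Pdia4 and Calr are strongest in library DKO-B-3.

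BiP and GRP94 with their partners made up 9 of the genes. Under water 4 of the 9 were called higher (Dnajb11, Manf, Sdf2l1 and Hspa5) and none lower, beside 25.5% and 12.4% of all tested genes. The median log2 change of the 9 was 0.19, beside 0.05 over all tested genes. Under nicotine none of the 9 was called by limma, where 24.6% and 11.0% of all tested genes were called higher and lower. None of the 9 had an unadjusted p under 0.05, and the median was 0.00 beside 0.06. Hspa5, which encodes BiP, the central ER chaperone and the brake on all 3 sensors, was at 77.7, 75.7, 73.1 and 69.5 FPKM in WT-B and 83.5, 82.95, 107 and 77.2 in DKO-B. Under nicotine Hspa5 was at 80.9, 71.9, 86.6 and 88.5 in WT-N and 70.999, 78.99 and 74.9 in DKO-N. The groups overlapped: library DKO-B-4 lay below WT-B-1, and library DKO-B-3 was the highest of all 15. The log2 change of Hspa5 was 0.23 (SE 0.08, limma adjusted p = 0.0346) under water and -0.12 (SE 0.09, limma adjusted p = 0.292) under nicotine. Dnajb11, a BiP co-chaperone, was at 15.4, 14.9, 13.6 and 13.9 FPKM in WT-B and 16.6, 16.96, 17.5 and 15.4 in DKO-B. Under nicotine Dnajb11 was at 15.1, 14.6, 15.5 and 14.97 in WT-N and 14.4, 15.6 and 15.1 in DKO-N. DKO-B stood above WT-B apart from a slight overlap of DKO-B-4 and WT-B-1, and DKO-N-2, at 15.6, lay just above the WT-N range; the log2 changes of Dnajb11 were 0.19 (SE 0.05, limma adjusted p = 0.00497) and -0.00 (SE 0.05, limma adjusted p = 0.974).

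Sdf2l1, a luminal partner of the DnaJ co-chaperones, was at 7.51, 6.93, 6.40 and 5.50 FPKM in WT-B and 8.19, 8.72, 9.99 and 6.91 in DKO-B. Under nicotine Sdf2l1 was at 7.72, 6.76, 7.20 and 7.96 in WT-N and 9.13, 7.12 and 6.33 in DKO-N. Its groups overlapped in both comparisons, and its log2 changes were 0.31 under water (limma adjusted p = 0.0283) and 0.01 under nicotine (limma adjusted p = 0.961). Manf, a secreted protein that binds BiP and is released on ER stress, was at 17.3, 15.9, 16.4 and 13.8 FPKM in WT-B and 20.1, 17.9, 19.8 and 16.6 in DKO-B. Under nicotine Manf was at 15.6, 15.9, 16.8 and 18.6 in WT-N and 15.2, 16.3 and 15.99 in DKO-N. WT-B and DKO-B overlapped only through DKO-B-4 at 16.6 FPKM and WT-B-1 at 17.3; the log2 changes of Manf were 0.22 (limma adjusted p = 0.0222) and -0.07 (limma adjusted p = 0.507). Part of a Manf exon overlaps exons of Rbm15b, on the same strand, which was called lower in both comparisons (log2 changes -0.19 and -0.17), and reads of the 2 genes may not be fully separated.

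The other members of this set were not called in any comparison. Hsp90b1, which encodes GRP94, ranged from 126 to 149 FPKM over all libraries, and its log2 change under water was 0.09 (95% interval 0.00 to 0.17, limma adjusted p = 0.0925). Hyou1, a nucleotide exchange factor of BiP, differed by 0.08 (95% interval -0.03 to 0.19) and Dnajb9, the co-chaperone ERdj4, by 0.02 (95% interval -0.07 to 0.11). Dnajb9 had the smallest log2 change of the 9 under water. Dnajc3 was at 10.5 to 11.5 FPKM in WT-B and 11.7 to 12.3 in DKO-B; these ranges did not overlap, but the limma adjusted p was 0.0686. Creld2, a stress-inducible luminal protein, had a log2 change of 0.23 (95% interval 0.02 to 0.44, limma adjusted p = 0.0759).

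DKO-B-3 was the highest of the 15 libraries in 10 of the 33 genes (30.3%), among them Hspa5, Hsp90b1, Hyou1, Dnajb11, Sdf2l1, Calr, Canx, Pdia3, Pdia4 and Pdia6, while it was highest in 4.58% of all tested genes. WT-B-4 was the lowest library in 9 of the 33 genes, among them Hspa5, Sdf2l1, Manf and Pdia4, and in 8.34% of all tested genes. Without DKO-B-3 the count of higher genes in DKO-B against WT-B was 10 in place of 15, and without WT-B-4 it was also 10; in each case Dnajb11 was the 1 gene called among the BiP and GRP94 set. Summed over the 9 genes, DKO-B-1 to DKO-B-4 stood at 340.4, 331, 379 and 311 FPKM and the WT-B libraries at 294 to 314, so DKO-B-4 lay within the WT-B range. Choroid plexus and ependymal markers, summed over 9 genes, were at 20.8 FPKM in DKO-B-3 and 37.2 in DKO-B-4, against 8.72 and 10.5 in the other two and 7.09 to 13.8 in WT-B. Their part in the chaperone values was not tested. After median-of-ratios rescaling, which moves the median log2 change of all tested genes from 0.05 to -0.01, none of the 9 was called.

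**Figure D2:**
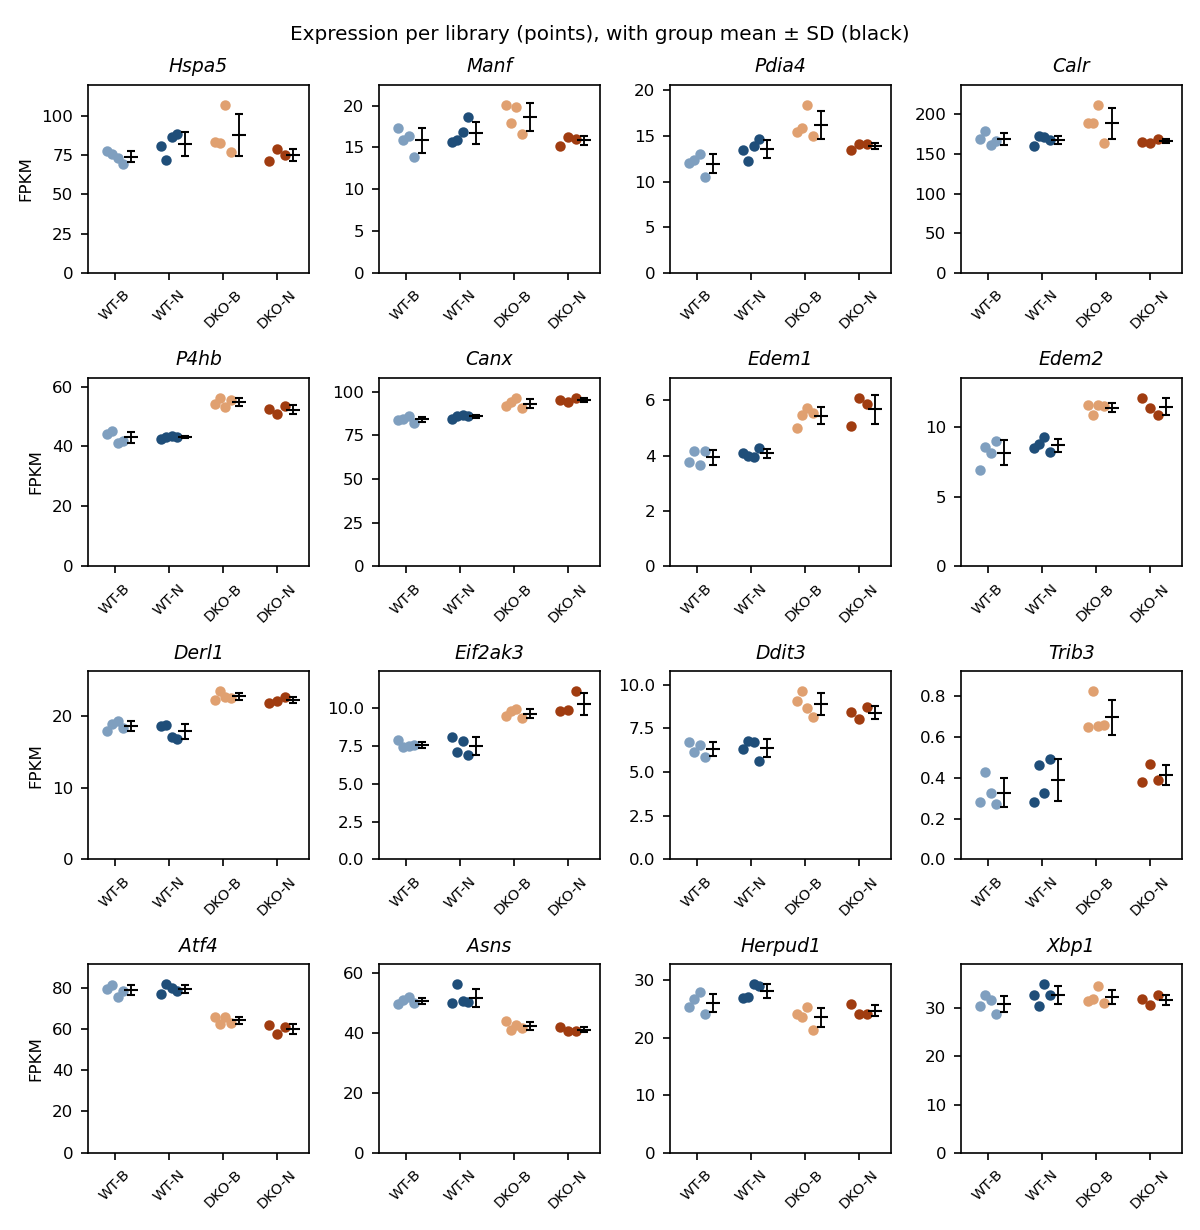
Each panel plots FPKM of 1 gene (vertical axes start at 0), with a point per library in the groups WT-B, WT-N, DKO-B and DKO-N and the group mean ± SD in black. P4hb, Edem1, Edem2, Derl1, Eif2ak3 and Ddit3 are higher and Atf4 and Asns lower in all DKO libraries than in all WT libraries. The DKO-B points of Hspa5 and Calr spread widely, and those of DKO-N lie within the WT range. Neither gene was called by limma in DKO-N against DKO-B.

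Both lectin chaperones were called higher under water, and calnexin was also called higher under nicotine. Of all tested genes, 25.5% and 24.6% were called higher. Canx, the membrane-bound calnexin, was at 83.8, 84.4, 85.8 and 82.3 FPKM in WT-B and 91.9, 93.8, 96.4 and 90.6 in DKO-B. Under nicotine Canx was at 84.4, 86.1, 86.9 and 85.8 in WT-N and 95.2, 93.9 and 96.2 in DKO-N. All 7 DKO libraries lay above all 8 WT libraries, and the log2 changes were 0.15 (SE 0.03, limma adjusted p = 0.000609) under water and 0.15 (SE 0.03, limma adjusted p = 0.00137) under nicotine. Calr, the soluble calreticulin and also the main calcium buffer of the ER lumen, was at 169, 179, 161 and 166 FPKM in WT-B and 189, 189, 212 and 164 in DKO-B. Under nicotine Calr was at 159.8, 172, 171 and 167 in WT-N and 165, 164 and 169 in DKO-N. DKO-B-4 lay within the WT-B range and the DKO-N libraries within the WT-N range; the log2 changes of Calr were 0.16 (limma adjusted p = 0.0391) and -0.01 (limma adjusted p = 0.882). The call of Calr under water was lost in 10 of 23 alternative analyses, whereas that of Canx under water was kept in all 23. The call of Canx under nicotine was lost after median-of-ratios rescaling (log2 change 0.07, limma adjusted p = 0.129).

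Of the 5 protein disulfide isomerases, 4 were called higher and none lower under water, beside 25.5% and 12.4% of all tested genes. Under nicotine 2 were called higher and 1 lower, beside 24.6% and 11.0%. The median log2 changes of the 5 were 0.21 and 0.04, beside 0.05 and 0.06 over all tested genes. P4hb, protein disulfide isomerase itself and the beta subunit of collagen prolyl 4-hydroxylase, was at 43.996, 45.2, 41.3 and 41.9 FPKM in WT-B and 54.3, 56.2, 53.3 and 55.6 in DKO-B. Under nicotine P4hb was at 42.5, 43.3, 43.5 and 43.1 in WT-N and 52.6, 50.8 and 53.6 in DKO-N. Every DKO library exceeded every WT library and P4hb had the smallest p of the 33 genes under water: the log2 change was 0.34 (SE 0.03, limma adjusted p = 7.39e-07), a mean 27.3% higher, and 0.27 (SE 0.04, limma adjusted p = 2.43e-05) under nicotine, a mean 21.3% higher. Pdia3 (ERp57), which works with the lectin chaperones on glycoproteins, was at 65.5, 66.99, 66.4 and 58.6 FPKM in WT-B and 78.5, 73.4, 79.2 and 67.8 in DKO-B. Under nicotine Pdia3 was at 62.6, 63.4, 69.2 and 63.5 in WT-N and 71.7, 73.9 and 71.2 in DKO-N. The genotypes did not overlap under either drink, and the log2 changes were 0.21 (SE 0.05, limma adjusted p = 0.00396) and 0.16 (SE 0.06, limma adjusted p = 0.036); the call under nicotine was lost in 10 of 23 alternative analyses. Exons of Pdia3 overlap those of Catsper2 on the other strand, which averaged 0.784 FPKM.

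Pdia4 (ERp72), a chaperone found in complexes with BiP, was at 12.03, 12.3, 12.98 and 10.5 FPKM in WT-B and 15.4, 15.9, 18.4 and 15.01 in DKO-B. Under nicotine Pdia4 was at 13.5, 12.2, 13.9 and 14.6 in WT-N and 13.5, 14.1 and 14.1 in DKO-N. All 4 DKO-B libraries lay above all WT-B libraries, while the DKO-N libraries lay among those of WT-N. Its log2 change was 0.41 (SE 0.07, limma adjusted p = 0.000185) under water and 0.04 (SE 0.07, limma adjusted p = 0.708) under nicotine. Pdia6, which acts on IRE1 and PERK as well as on client proteins, was at 41.3, 42.1, 37.4 and 37.9 FPKM in WT-B and 46.001, 41.99, 50.7 and 39.96 in DKO-B. Under nicotine Pdia6 was at 40.96, 37.7, 42.3 and 41.1 in WT-N and 38.4, 39.9 and 40.4 in DKO-N. WT-B and DKO-B overlapped through DKO-B-2 and DKO-B-4, and the log2 changes were 0.16 (limma adjusted p = 0.0458) and -0.03 (limma adjusted p = 0.741). The call of Pdia6 under water was lost in 13 of 23 alternative analyses. Pdia5, a low isomerase known to act on ATF6, was at 1.61, 1.28, 1.05 and 1.07 FPKM in WT-B and 1.59, 1.33, 1.22 and 1.42 in DKO-B. Under nicotine Pdia5 was at 2.52, 1.51, 2.05 and 1.59 in WT-N and 0.896, 1.68 and 1.24 in DKO-N. WT-N was the high group, and DKO-N-2 overlapped it. Its log2 changes were 0.09 (limma adjusted p = 0.594) and -0.36 (limma adjusted p = 0.0364); the call under nicotine was lost without WT-N-1, WT-N-3, DKO-N-1 or DKO-N-3, with no filter and with only the groups compared.

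In ER-associated degradation the calls were the same under water and nicotine. Of 7 tested genes, the same 3 were called higher (Edem1, Edem2 and Derl1) and the same 1 lower (Herpud1) under both drinks. Over all tested genes 18.1% were called higher and 8.44% lower in both comparisons. The medians of the 7 were 0.06 and 0.07, beside 0.05 and 0.06 over all tested genes. Edem2, which starts the mannose trimming that marks a glycoprotein for disposal, was at 6.93, 8.57, 8.13 and 9.04 FPKM in WT-B and 11.6, 10.9, 11.6 and 11.5 in DKO-B. Under nicotine Edem2 was at 8.49, 8.77, 9.29 and 8.22 in WT-N and 12.1, 11.4 and 10.9 in DKO-N. All DKO libraries were above all WT libraries, and the log2 changes were 0.44 (SE 0.06, limma adjusted p = 3.25e-05) and 0.36 (SE 0.07, limma adjusted p = 0.00052). Edem1, which acts further along the same trimming route, was at 3.75, 4.18, 3.67 and 4.15 FPKM in WT-B and 5.01, 5.47, 5.73 and 5.52 in DKO-B. Under nicotine Edem1 was at 4.10, 3.997, 3.93 and 4.27 in WT-N and 5.08, 6.08 and 5.85 in DKO-N. Again no DKO library overlapped a WT library, with log2 changes of 0.38 (SE 0.06, limma adjusted p = 8.23e-05) and 0.39 (SE 0.06, limma adjusted p = 0.00016), or means 37.9% and 39.1% higher. Derl1, a membrane protein of the channel that returns substrates to the cytosol, was at 17.8, 18.8, 19.3 and 18.3 FPKM in WT-B and 22.2, 23.4, 22.6 and 22.5 in DKO-B. Under nicotine Derl1 was at 18.6, 18.7, 17.1 and 16.8 in WT-N and 21.8, 22.1 and 22.6 in DKO-N. The genotypes again did not overlap, and the log2 changes were 0.28 (SE 0.04, limma adjusted p = 5.30e-05) and 0.30 (SE 0.04, limma adjusted p = 5.28e-05).

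Among Herpud1, Sel1l and Syvn1 of the HRD1 ubiquitin ligase, Herpud1 was called lower, and Sel1l and Syvn1 were not called. Herpud1, a scaffold of that ligase whose promoter held both the second ER stress element and the ATF4 element, was at 25.4, 26.8, 27.9 and 24.2 FPKM in WT-B and 24.1, 23.7, 25.3 and 21.3 in DKO-B. Under nicotine Herpud1 was at 26.9, 27.2, 29.3 and 29.1 in WT-N and 25.9, 24.1 and 24.2 in DKO-N. DKO-B overlapped WT-B, whereas DKO-N lay below WT-N throughout; the log2 changes of Herpud1 were -0.14 (limma adjusted p = 0.0483), a call lost in 16 of 23 alternative analyses, and -0.18 (limma adjusted p = 0.0228), lost in 4. Sel1l and Syvn1, the adaptor and the catalytic subunit of that ligase, were not called: Sel1l differed by -0.09 (95% interval -0.19 to 0.02) and -0.01 (95% interval -0.13 to 0.10), and Syvn1 by -0.07 (95% interval -0.17 to 0.02) and -0.08 (95% interval -0.18 to 0.02). After median-of-ratios rescaling both were called lower under water, and Syvn1 also under nicotine. Derl2, a relative of Derl1, was not called, with log2 changes of 0.06 and 0.07; its exons overlap those of Mis12 on the other strand, as those of Syvn1 overlap Mrpl49. Derl3, the isoform typical of secretory organs, was at 0.158 to 0.567 FPKM in WT-B, 0.189 to 0.857 in DKO-B, 0.209 to 1.08 in WT-N and 0.446 to 0.881 in DKO-N, from 5 to 34 reads, with all groups overlapping.

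**Figure D3:**
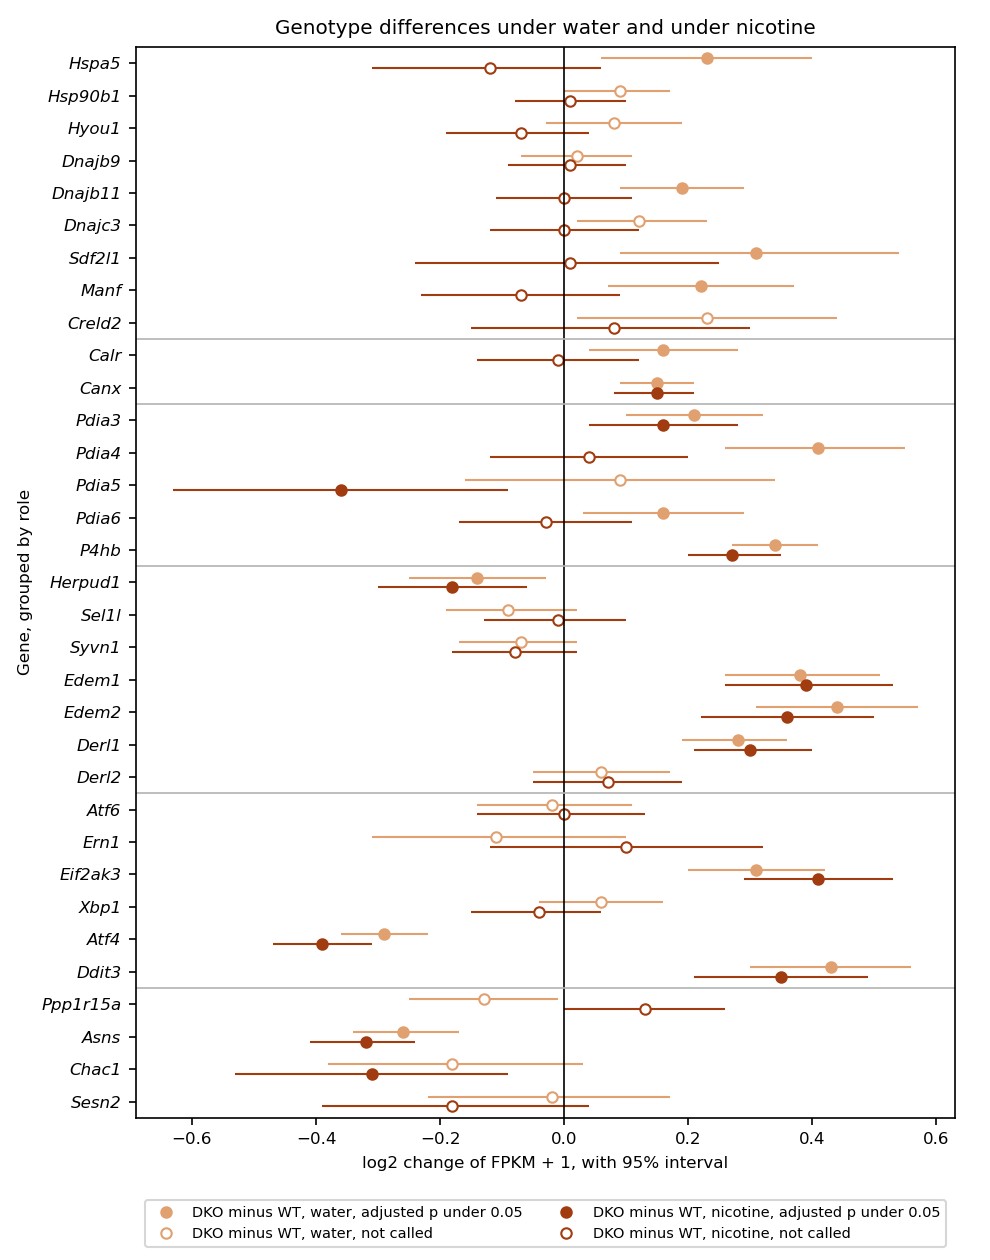
Points are log2 changes of FPKM + 1, DKO minus WT, with 95% intervals, for the 33 tested genes under water and under nicotine; filled points had a limma adjusted p under 0.05. The 2 points of each gene lie close together for Canx, Edem1, Edem2, Derl1 and Ddit3, while those of Hspa5, Pdia4, Manf and Sdf2l1 lie near 0 or below it under nicotine.

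Of the 3 sensors, Eif2ak3 was the 1 called, and it was higher in both comparisons, as were 18.1% of all tested genes. Eif2ak3, which encodes PERK, was at 7.85, 7.41, 7.49 and 7.53 FPKM in WT-B and 9.47, 9.77, 9.92 and 9.30 in DKO-B. Under nicotine Eif2ak3 was at 8.11, 7.07, 7.81 and 6.92 in WT-N and 9.82, 9.84 and 11.1 in DKO-N. Every DKO library lay above every WT library. The log2 changes were 0.31 (SE 0.05, limma adjusted p = 0.000201) and 0.41 (SE 0.06, limma adjusted p = 3.29e-05), or means 27.01% and 37.2% higher. Atf6 was at 16.5 ± 0.811 FPKM in WT-B and 16.2 ± 0.802 in DKO-B (SD, n = 4 each), a log2 change of -0.02 (95% interval -0.14 to 0.11). Ern1, which encodes IRE1, was at 1.95 ± 0.417 and 1.73 ± 0.307 FPKM (SD, n = 4 each), different by -0.11 (95% interval -0.31 to 0.10). Neither was called in any comparison. Xbp1, whose transcript IRE1 splices, was at 30.9 ± 1.67 and 32.4 ± 1.55 FPKM (SD, n = 4 each), different by 0.06 (95% interval -0.04 to 0.16). Gene-level values do not separate its spliced from its unspliced form.

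Below PERK, Atf4 was called lower and Ddit3 higher in both genotype comparisons. Atf4, whose activity is set mainly by translation and which was one of the most expressed genes of the group, was at 79.6, 81.3, 75.5 and 78.4 FPKM in WT-B and 65.6, 62.4, 65.8 and 62.8 in DKO-B. Under nicotine Atf4 was at 77.2, 81.6, 79.8 and 78.2 in WT-N and 61.96, 57.4 and 61.1 in DKO-N. All 7 DKO libraries lay below all 8 WT libraries, with log2 changes of -0.29 (SE 0.03, limma adjusted p = 6.00e-06) and -0.39 (SE 0.04, limma adjusted p = 6.11e-07), or differences of means of -18.5% and -24.1%. Ddit3, which encodes CHOP, the pro-apoptotic factor that ATF4 activates, was at 6.74, 6.15, 6.52 and 5.84 FPKM in WT-B and 9.07, 9.62, 8.65 and 8.14 in DKO-B. Under nicotine Ddit3 was at 6.29, 6.80, 6.72 and 5.65 in WT-N and 8.43, 8.02 and 8.74 in DKO-N. All DKO libraries lay above all WT libraries, with log2 changes of 0.43 (SE 0.06, limma adjusted p = 3.52e-05) and 0.35 (SE 0.07, limma adjusted p = 0.000571), the largest difference of means among the 33 genes under water. Exons of Ddit3 overlap those of Mars on the other strand, and the labels do not say whether counting used strand; Mars itself averaged 13.4 FPKM and its log2 changes were 0.06 (limma adjusted p = 0.255) and 0.02 (limma adjusted p = 0.698).

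Of 4 tested targets of ATF4 and CHOP, 1 was called lower under water and 2 under nicotine, none higher. Ddit3, which ATF4 also activates, was counted with the sensors and was called higher in both comparisons. Trib3 was below the filter and is not among the 4. Over all tested genes 12.4% and 11.0% were called lower, and 25.5% and 24.6% higher. The medians of the 4 were -0.15 and -0.24, beside 0.05 and 0.06 over all tested genes. In the list of 16 amino acid genes of the ATF4 network, given below, 9 were called higher and 1 lower under water. Under nicotine these were 8 and 1, and the list medians were 0.25 and 0.20. Asns, asparagine synthetase and a classical ATF4 target with the composite element near its start site, was at 49.9, 51.1, 52.2 and 50.1 FPKM in WT-B and 44.2, 41.2, 42.6 and 41.7 in DKO-B. Under nicotine Asns was at 50.01, 56.3, 50.6 and 50.5 in WT-N and 42.2, 40.7 and 40.6 in DKO-N. No DKO library reached the WT range, and the log2 changes were -0.26 (SE 0.04, limma adjusted p = 6.95e-05) and -0.32 (SE 0.04, limma adjusted p = 1.63e-05), or differences of means of -16.5% and -20.6%. Chac1, a glutathione-degrading enzyme, was at 4.42, 4.65, 5.50 and 4.66 FPKM in WT-B and 4.27, 4.59, 3.94 and 3.75 in DKO-B. Under nicotine Chac1 was at 5.05, 4.74, 3.49 and 4.90 in WT-N and 2.85, 3.91 and 3.65 in DKO-N. DKO-N-1 was the lowest and WT-N-3 lay within the DKO-N range. Its log2 changes were -0.18 (limma adjusted p = 0.165) and -0.31 (limma adjusted p = 0.0297), a call lost in 7 of the 22 alternative analyses that tested it, voom on recovered reads among them. Ppp1r15a, the GADD34 subunit that restores translation, and Sesn2, a nutrient sensor, were not called: the log2 changes of Ppp1r15a were -0.13 and 0.13, of unlike sign, and those of Sesn2 -0.02 and -0.18. The DKO-N libraries of Ppp1r15a all lay above those of WT-N.

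Trib3, a pseudokinase that CHOP and ATF4 induce, was at 0.284, 0.431, 0.326 and 0.270 FPKM in WT-B and 0.648, 0.825, 0.655 and 0.657 in DKO-B. Under nicotine Trib3 was at 0.282, 0.463, 0.324 and 0.495 in WT-N and 0.381, 0.468 and 0.392 in DKO-N. These values came from 10 to 31 reads per library. The 4 DKO-B libraries were above every other library, and DKO-N lay within the WT-N range. With no filter on low values, Trib3 differed by 0.35 (SE 0.05, limma adjusted p = 0.000253) in DKO-B against WT-B, 0.03 (SE 0.06, limma adjusted p = 0.805) in DKO-N against WT-N and -0.26 (SE 0.06, limma adjusted p = 0.119) in DKO-N against DKO-B. The difference between DKO-N and DKO-B did not pass the threshold, nor did the interaction of -0.33 (limma adjusted p = 0.569). Of the 4 genes with an ATF4 composite element in the promoter window, Asns and Herpud1 were called lower in both genotype comparisons, Chac1 in one, and Trib3 was higher in DKO-B with no filter.

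The study also asked what nicotine did within each genotype. None of the 33 genes was called by limma in WT-N against WT-B, where 0.173% of all tested genes were called, or in DKO-N against DKO-B, where 0.157% were. At an unadjusted p under 0.05 there were 4 genes in WT (Ppp1r15a, Pdia5, Pdia4 and Creld2) and 8 in DKO (Calr, Hyou1, Manf, Pdia4, Dnajb11, Pdia6, Atf4 and Hspa5), where 8.70% and 13.9% of all tested genes fell under it. Voom on recovered reads also called none of the 33 in either. The 8 genes all had lower means in DKO-N than in DKO-B, with differences of means of -12.1% for Calr, -14.8% for Manf, -14.4% for Hspa5, -13.99% for Pdia4, -11.4% for Pdia6, -10.8% for Hyou1, -9.65% for Dnajb11 and -6.27% for Atf4, with limma adjusted p from 0.23 to 0.301. DKO-B-3 was the highest of all libraries in Calr, Hspa5, Pdia4, Pdia6, Hyou1 and Dnajb11. Striatal markers had a median log2 change of -0.34 in DKO-N against DKO-B, with 4 of 9 at an unadjusted p under 0.05 and none called. The part of that library and of these markers was not tested. In Hyou1, Manf, Pdia4 and Atf4 the 3 DKO-N libraries lay below all 4 DKO-B libraries, where 3.99% of all tested genes did so. In WT, Ppp1r15a had the smallest p. It was at 7.42, 8.26, 8.72 and 8.67 FPKM in WT-B and 7.57, 7.09, 6.95 and 8.29 in DKO-B. Under nicotine Ppp1r15a was at 6.73, 6.63, 7.10 and 6.80 in WT-N and 7.52, 7.29 and 7.87 in DKO-N. Every WT-N library lay below every WT-B library, as in 2.66% of all tested genes, with a log2 change of -0.24 (95% interval -0.36 to -0.12, limma adjusted p = 0.141). WT-N also differed from WT-B in Y-linked expression (given below), and nicotine in WT cannot be told apart from it.

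The interaction, which asks whether the nicotine difference differs between DKO and WT, was called by limma for none of the 33 genes and for 0.0157% of all tested genes; at an unadjusted p under 0.05 there were 7 of the 33 and 6.90% of all tested genes. Pdia4 had the smallest p, with an interaction of -0.37 (95% interval -0.58 to -0.15, limma adjusted p = 0.576), followed by Ppp1r15a at 0.26 (limma adjusted p = 0.653) and Hspa5 at -0.36 (95% interval -0.61 to -0.10, limma adjusted p = 0.657). That the genotype difference of Hspa5, Pdia4, Manf, Sdf2l1, Dnajb11, Calr or Pdia6 depends on nicotine was not shown. For Canx, Edem1 and Derl1 the interaction was -0.00 (95% interval -0.09 to 0.09), 0.01 (95% interval -0.17 to 0.19) and 0.03 (95% interval -0.10 to 0.16). The interaction takes in WT-N against WT-B, which also differed in Y-linked expression (given below), and these cannot be told apart.

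**Figure D4:**
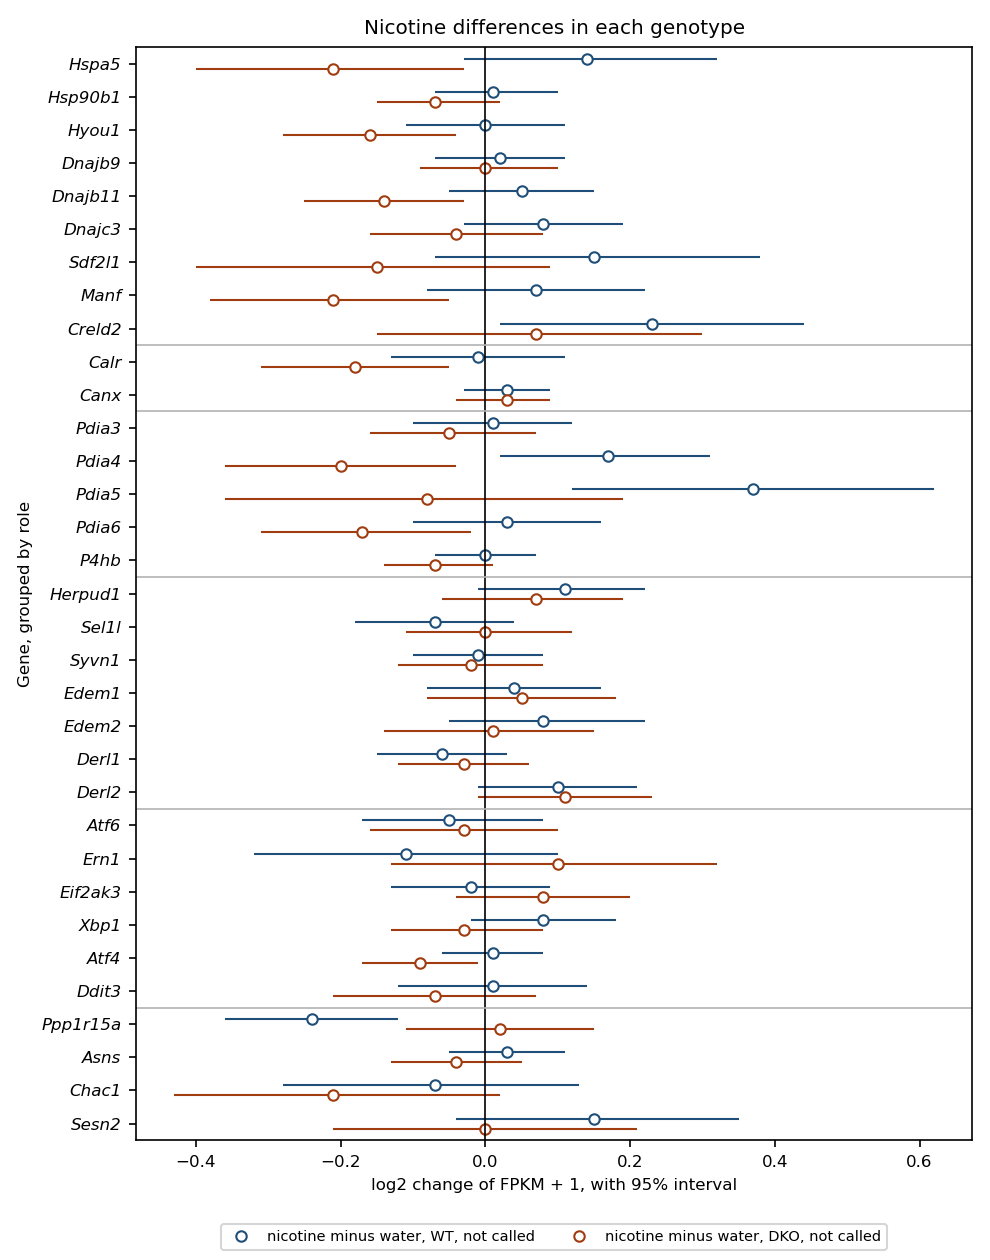
Points are log2 changes of FPKM + 1, nicotine minus water, with 95% intervals, in WT and in DKO for the 33 tested genes; all are open because none had a limma adjusted p under 0.05. In DKO the points of Hspa5, Manf, Pdia4, Calr, Pdia6, Hyou1, Dnajb11 and Atf4 lie below 0 with intervals that leave 0 out, and in WT those of Pdia4, Pdia5 and Creld2 lie above and that of Ppp1r15a below.

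Other lists were counted beside these comparisons. The summed FPKM of 4 Y-linked genes was 28.9 to 32.97 in WT-B and 24.3 to 32.97 in DKO-B but 0.0909 to 0.144 in WT-N, and in DKO-N it was 35.9 and 36.6 in 2 libraries and 0.233 in DKO-N-2; nicotine in WT and this difference cannot be told apart. All 4 Y-linked genes were also called higher in DKO-N than in WT-N, with a median log2 change of 2.09, and genotype under nicotine and this difference cannot be told apart either, wholly so without DKO-N-2. In the interaction limma called none of the 4, but all 4 had an unadjusted p under 0.05, with a median of 2.13. The interaction and this difference cannot be told apart either. None of the 4 was called in DKO-B against WT-B. Without DKO-N-2, none of the 33 genes was called in DKO-N against DKO-B, and in DKO-N against WT-N 7 were called higher and 4 lower. Of 16 clock genes, 5 were called higher in DKO-N than in DKO-B and 1 in WT-N than in WT-B. Their median log2 changes were 0.19 and 0.12, with 12 and 10 of the 16 at an unadjusted p under 0.05. Of all tested genes, 13.9% and 8.70% were. Between genotypes 11 were called lower in DKO-B than in WT-B and 8 lower in DKO-N than in WT-N. Clock gene sums were 424 to 466 FPKM in WT-B, 345 to 364 in DKO-B, 472 to 491 in WT-N and 379 to 422 in DKO-N. The 5 calls of clock genes in DKO-N against DKO-B became 0 with only the groups compared and without DKO-B-1 or DKO-B-3, 2 without DKO-N-1 and 1 without DKO-N-2. Of 10 immediate early genes, all were called lower in DKO-B than in WT-B and 3 lower in DKO-N than in WT-N, while 1 was called lower in WT-N than in WT-B and 0 by limma in DKO-N against DKO-B, where 0 also had an unadjusted p under 0.05; their sums were 367 to 453 FPKM in WT-B, 112 to 173 in DKO-B, 194 to 356 in WT-N and 127 to 203 in DKO-N. Of 10 cytosolic heat shock genes, 4 were called higher in DKO-B than in WT-B, with sums of 1886 to 2028 FPKM in WT-B and 1936 to 2198 in DKO-B, and limma called none in either nicotine comparison, with 0 in WT and 2 in DKO at an unadjusted p under 0.05. The part of these differences in the results was not tested.

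Further genes of the same pathways were counted from lists. Over all tested genes 25.5% were called higher and 12.4% lower under water, and 24.6% and 11.0% under nicotine. After median-of-ratios rescaling these shares were 18.2% and 19.8%, and 15.7% and 19.0%. In the translocon and signal peptidase list, which holds the machinery that brings new chains into the ER, 11 of 19 genes were called higher and 1 lower under water, and 10 and 1 under nicotine, with medians of 0.15 and 0.14; after rescaling these counts were 7 and 1, and 5 and 1. The channel subunit Sec61a1 had log2 changes of 0.26 (SE 0.04, limma adjusted p = 8.37e-05) and 0.26 (SE 0.04, limma adjusted p = 0.000246). The single lower gene under both drinks was Spcs3, a signal peptidase subunit, at -0.32 (SE 0.04, limma adjusted p = 9.39e-06) and -0.26 (SE 0.04, limma adjusted p = 0.000183). In the list of oligosaccharyltransferase and glycan trimming genes, 6 of 14 were called higher and 1 lower under water and 6 higher under nicotine, beside 25.5% and 24.6% of all tested genes called higher. After rescaling the counts were 3 higher and 1 lower, and 4 higher and 2 lower. Rpn2, an oligosaccharyltransferase subunit, went from 33.2 ± 0.851 to 41.4 ± 0.917 FPKM under water (SD, n = 4 each), and Ganab, the alpha subunit of glucosidase II, had log2 changes of 0.22 and 0.20.

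Folding factors beyond the 35 genes were mixed, with 6 of 22 called higher and 3 lower under water and 5 and 1 under nicotine, beside the 25.5% and 12.4% and the 24.6% and 11.0% of all tested genes. After rescaling 5 were higher and 4 lower under water, and 2 higher and 4 lower under nicotine. Over all tested genes the rescaled shares were 18.2% and 19.8%, and 15.7% and 19.0%. Ppib, an ER prolyl isomerase, had log2 changes of 0.29 and 0.25. Of 19 other degradation factors, 5 were called higher and none lower under each drink, a share near that of all tested genes, and after rescaling 3 were higher and 2 lower under water and 2 and 1 under nicotine. Among those higher in both was Os9, a lectin that hands trimmed glycoproteins to the ligase, at 0.20 (SE 0.04, limma adjusted p = 0.000443) and 0.20 (SE 0.04, limma adjusted p = 0.000914). In the list of ATF6 processing and other ER stress genes, 5 of 11 were called higher under water and 6 under nicotine, none lower. Of all tested genes 25.5% and 24.6% were called higher. After rescaling 4 of the list were higher in each and 1 lower under nicotine. Wfs1, wolframin, an ER membrane protein, went from 31.7 ± 2.63 to 53.8 ± 7.31 FPKM under water (SD, n = 4 each), a log2 difference of 0.74, and had 0.73 under nicotine. Tmbim6, an ER membrane regulator of cell death, had 0.30 and 0.26, and Creb3l2, a relative of ATF6, 0.44 and 0.46.

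Of 17 eIF2 kinase and network genes, 5 were called higher and 1 lower under water and 3 and 2 under nicotine, beside 25.5% higher and 12.4% lower, and 24.6% and 11.0%, of all tested genes. After rescaling they were 3 and 2, and 3 and 3, beside 18.2% and 19.8%, and 15.7% and 19.0%, of all tested genes. Atf3, a stress-induced factor, went from 0.440 ± 0.0700 to 2.56 ± 0.269 FPKM under water (SD, n = 4 each), a log2 difference of 1.30 (SE 0.09, limma adjusted p = 7.61e-09), and had 1.02 (SE 0.10, limma adjusted p = 4.26e-07) under nicotine. Of 16 amino acid synthesis and transport genes of the ATF4 network, 9 were called higher and 1 lower under water and 8 and 1 under nicotine. Of all tested genes 25.5% and 24.6% were called higher. The list medians were 0.25 and 0.20, beside 0.05 and 0.06 over all tested genes. After rescaling the counts were 8 and 2, and 6 and 2. Aldh1l2, a mitochondrial folate enzyme, had log2 changes of 0.71 (SE 0.08, limma adjusted p = 5.54e-06) and 0.66 (SE 0.09, limma adjusted p = 3.06e-05), and Slc1a4, a neutral amino acid transporter, 0.44 (SE 0.05, limma adjusted p = 4.04e-06) and 0.37 (SE 0.05, limma adjusted p = 5.64e-05). Of 13 cytosolic aminoacyl-tRNA synthetases, 1 was called higher and 3 lower under each drink, beside 12.4% and 11.0% of all tested genes called lower. After rescaling 0 were higher, with 4 and 6 lower. Yars and Nars were lower in both comparisons, with log2 changes of -0.22 and -0.23 for Yars. The list medians of the eIF2 network and the synthetases were 0.06 and -0.04 under water, beside 0.05 over all tested genes.

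In these lists 2 genes were called in DKO-N against DKO-B, where 0.157% of all tested genes were called. Sec61a2, another form of the translocon channel, was higher in DKO-N than in DKO-B by 0.30 (SE 0.05, limma adjusted p = 0.0154), and Creld1, a membrane relative of Creld2, differed by -0.24 (SE 0.04, limma adjusted p = 0.0153). Of 23 alternative analyses, the call of Sec61a2 was lost in 5 and that of Creld1 in 4. Both were lost with only the groups compared (limma adjusted p = 0.231 and 0.203) and without DKO-B-1, DKO-B-3 or DKO-N-2, and Sec61a2 also without DKO-N-1. No gene of these lists was called in WT-N against WT-B or in the interaction by limma.

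**Figure D5:**
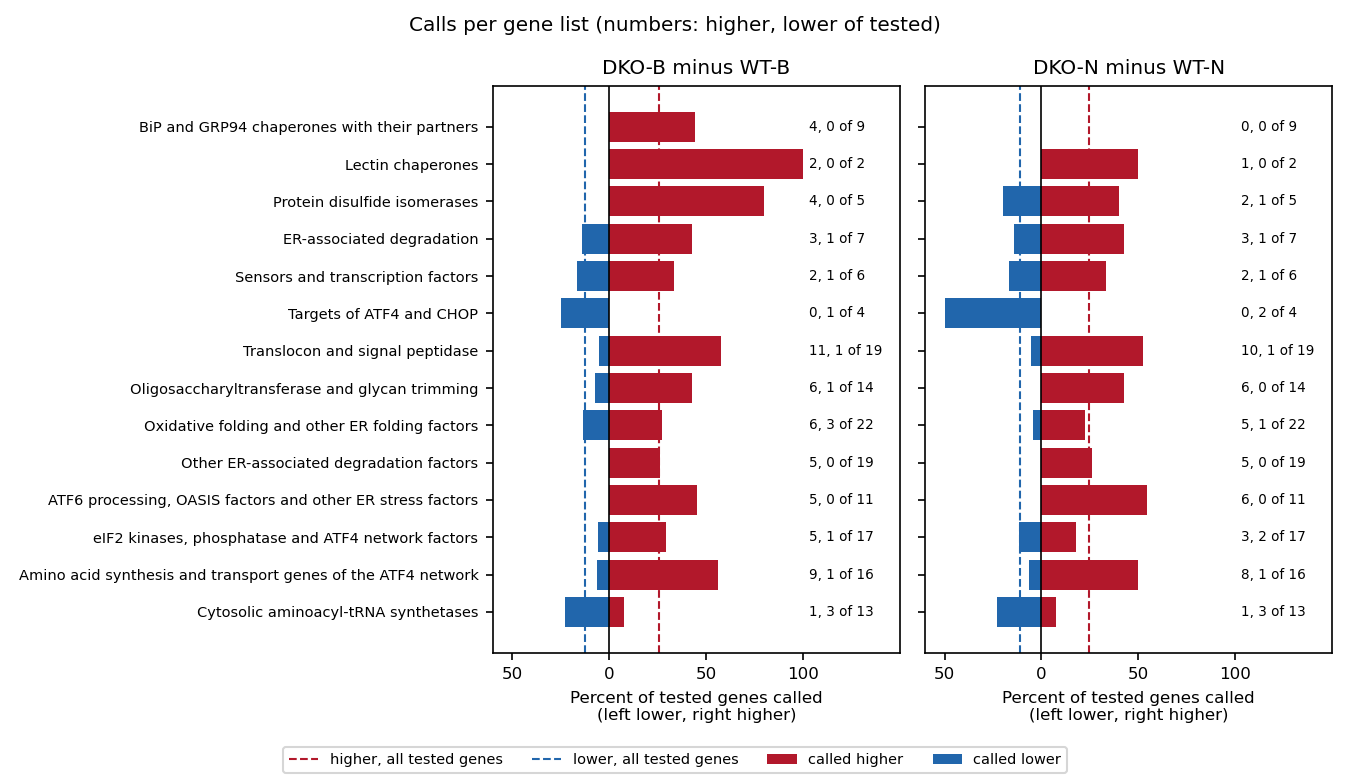
Bars give the percent of tested genes in each list called higher (right) or lower (left) at a limma adjusted p under 0.05, with counts at the side, for DKO-B minus WT-B and DKO-N minus WT-N; dashed lines give the shares over all tested genes. The BiP and GRP94 set is called higher in 4 of 9 genes under water and in none under nicotine. The translocon, amino acid, oligosaccharyltransferase and ATF6 processing lists extend past the dashed line for higher genes in both panels. So do the lectin, disulfide isomerase, sensor and ER-associated degradation lists, and the other degradation factors slightly.

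Median-of-ratios factors were 0.967 to 0.99 in the WT libraries and 1.01 to 1.04 in the DKO libraries. With them 48.0% of the calls over all tested genes in DKO-B against WT-B were higher, in place of 67.2%. As shares of all tested genes, 18.2% were called higher and 19.8% lower. The 33 genes gave 9 higher and 6 lower in place of 15 and 3. The 9 were Canx, Ddit3, Derl1, Edem1, Edem2, Eif2ak3, P4hb, Pdia3 and Pdia4, and the genes added on the lower side were Ppp1r15a, Sel1l and Syvn1. In DKO-N against WT-N 45.3% of the rescaled calls were higher, in place of 69.0%. As shares of all tested genes, 15.7% were called higher and 19.0% lower. The 33 genes gave 6 higher (Ddit3, Derl1, Edem1, Edem2, Eif2ak3 and P4hb) and 6 lower (Asns, Atf4, Chac1, Herpud1, Pdia5 and Syvn1). P4hb, Edem1, Edem2, Derl1, Eif2ak3, Ddit3, Atf4 and Asns kept their calls in both genotype comparisons under each of the 23 alternative analyses.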

How the data were processed

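Per the labels' protocols, a TruSeq Stranded mRNA kit was used on TRIzol-extracted RNA. For each library the authors deposited gene-level FPKM; the submitters' processing notes name GRCm38.p6, while aligner, counter and strand use are not given in the sources used. Of 21878 rows, 3760 were at 0 in every library, 27 names that had become dates were restored from gene numbers, and 21727 matched RefSeq. Whole reads were recovered from the FPKM steps for 100.0% of tested genes (within 0.02 reads).

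Genes reaching 1 FPKM in 3 or more libraries were tested with limma 3.58.1 (R 4.3.3) on log2(FPKM + 1), with an intensity trend and 1 term per group over all 15 libraries; p-values were adjusted by Benjamini-Hochberg over 12728 genes per comparison, and called means an adjusted p under 0.05. The interaction is the nicotine difference in DKO minus that in WT. The fit was tested on simulated data. Alternatives were median-of-ratios rescaling, no filter, a filter at 5 FPKM, a pseudocount of 0.1, no trend, a replicate block, a fit restricted to the groups compared, limma voom on recovered reads, and leaving out each library. Values in every library are printed in the order of the library numbers. Exon overlaps came from GENCODE M21. Values were given in full for members called in any comparison, and pathway genes were named by smallest p. The members, lists and motifs were chosen with earlier results of these data known. The other targeted gene is not reported here; 13 of 25 listed tRNA synthetases were matched by name and the rest were not analysed here. Intervals cover the spread between libraries.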

Additional observations from a re-analysis of the deposited data

Results flagged for a closer look

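In groups of 4 libraries, 6 values stood apart from the other 3 by more than Dixon's 95% critical value of 0.829. Among 102 groups examined, chance flags about 1 in 20. In DKO-B, Sel1l was at 35.1 FPKM in DKO-B-3 against 30.997 to 31.5 in the others, Dnajb9 was at 24.1 in DKO-B-4 against 26.6 to 27.1, and Edem2 was at 10.9 in DKO-B-2 against 11.5 to 11.6. In WT-N, Asns was at 56.3 FPKM in WT-N-2 against 50.01 to 50.6, Pdia3 was at 69.2 in WT-N-3 against 62.6 to 63.5, and Hsp90b1 was at 128 in WT-N-1 against 130.1 to 131. No value of Hspa5 or Pdia4 in DKO-B-3 passed this criterion, although that library was the highest in both.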

How the results depend on the processing

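Counts of calls over the 33 tested genes moved most in DKO-B against WT-B: 15 were higher and 3 lower, and median-of-ratios rescaling gave 9 and 6. Leaving out 1 library gave 10 to 17 higher and 2 to 3 lower; the 10 came without WT-B-4 or without DKO-B-3, and without DKO-B-3 the calls of Hspa5, Sdf2l1, Manf, Calr and Pdia6 were lost. In DKO-N against WT-N, 8 were higher and 5 lower; leaving out 1 library gave 7 to 8 and 3 to 5, the 3 coming without WT-N-1, WT-N-3, WT-N-4, DKO-N-1 or DKO-N-3, and the lower count was also 3 with no filter, with a filter at 5 FPKM and with only the groups compared. Nicotine comparisons and the interaction gave 0 members under all settings run. No called member changed direction. Replicate numbers did not pair the libraries: deviations of 21 same-numbered pairs correlated at -0.214 to 0.165, with 2 above 0.1 and a median of -0.00891, beside 0.00867 for other numbers. With a replicate block the counts were 15 higher and 3 lower under water and 7 and 5 under nicotine, where Pdia3 was lost. Depth limits Trib3 and Derl3, at 5 to 34 reads, and Pdia5.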
